A study of Mus musculus with 12 samples.

Results

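The clustered histone genes are the Hist1, Hist2, Hist3 and Hist4 genes, which encode the bulk histones that package newly copied DNA. All gene rows whose Ensembl release 86 style symbol starts with Hist1h, Hist2h, Hist3h or Hist4h were taken, which gave 70 of 48795 annotated genes. Of these, 68 were matched by gene ID, and Hist1h2bm and Hist1h2bh by position and strand. By type there were 6 linker H1 genes, 20 H2A, 19 H2B, 12 H3 and 13 H4 genes, with 56 on chromosome 13, 10 on chromosome 3, 3 on chromosome 11 and 1 on chromosome 6. The libraries were made from mouse fetal membranes, the sacs around the fetus, at embryonic day 12 (E12) or 18 (E18), with 3 libraries in each of 4 groups. The E12 DKO and E18 DKO groups carried a double knockout of biglycan and decorin, a pair of small proteoglycans that bind collagen, on a strain given as C3H and C57BL/6. The E12 WT group and the libraries labelled E18 WT were wild-type C3H, so genotype and strain cannot be told apart. The labels name no promoter, allele or cell type for the knockout and do not say whether libraries came from separate animals, so p-values measure only the spread between these libraries.

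Bulk histones form the nucleosome, a core of H2A, H2B, H3 and H4 around which DNA is wound, and H1 binds the linker DNA between cores. Most clustered histone genes are transcribed in S phase, when cells copy their DNA, and their mRNAs usually end just after a short stem-loop instead of in a poly(A) tail. Some copies also give polyadenylated mRNA, which is known from cells that have stopped dividing and differentiated. The kit named in the labels makes libraries from mRNA and is built on poly(A) capture, so the counts below mostly concern histone transcripts with a tail.

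The stem-loop letters are shown because they mark where a histone mRNA without a tail would end. The search was for the letters shown, with any base at positions 3, 4, 10, 13 and 14 of the 16, in the sense strand of GENCODE M21 transcripts (build GRCm38). Capitals mark the loop between the 2 arms of the stem. The lines below are from chr13:23739512-23739527 (+), chr13:22040966-22040981 (-), chr11:58955172-58955187 (+) and chr3:96220418-96220433 (-).
Hist1h1c: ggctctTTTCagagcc
Hist1h4i: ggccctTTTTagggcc
Hist3h2a: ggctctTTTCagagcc
Hist2h2ac: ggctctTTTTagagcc
The letters were found in 44 of the 70 members, and the form of Hist1h1c was the commonest, in 26 members. In 22 of the 44 an annotated transcript ran on for over 100 bases after the stem-loop. That run was 840 bases in Hist1h1c, 330 in Hist1h4i and 1643 in Hist3h2a, and 57 in Hist2h2ac. No match was found in the transcripts of Hist1h2bc, Hist2h2be or Hist1h2al.

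Promoters were matched by symbol or gene ID to the RefSeq table (GRCm38.p6), which held 61 of the members, and the 250 bases before each start were searched on both strands. Stretches are printed for Hist1h1c, Hist1h4i and 2 pairs of an H2A and an H2B gene that each hold a called member. They run in the direction of the named gene. Capitals mark CCAAT, which reads ATTGG on the other strand, AAACACA (the H1 box), TATAAA, the box found near many start sites, and ATTTGCA (the octamer core, which reads TGCAAAT on the other strand). None of these holds another. They lie at chr13:23738557-23738806 (+), chr13:22041363-22041612 (-), chr13:23683960-23684209 (-) and chr3:96220881-96221130 (-).
Hist1h1c: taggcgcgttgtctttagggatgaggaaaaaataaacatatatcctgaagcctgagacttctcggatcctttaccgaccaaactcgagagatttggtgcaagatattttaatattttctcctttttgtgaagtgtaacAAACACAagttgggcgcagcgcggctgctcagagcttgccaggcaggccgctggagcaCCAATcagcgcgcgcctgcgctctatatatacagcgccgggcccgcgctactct
Hist1h4i: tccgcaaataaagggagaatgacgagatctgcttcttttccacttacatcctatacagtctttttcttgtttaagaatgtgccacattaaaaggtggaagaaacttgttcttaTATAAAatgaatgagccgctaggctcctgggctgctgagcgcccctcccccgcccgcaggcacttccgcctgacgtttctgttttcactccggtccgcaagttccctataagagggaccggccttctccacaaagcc
Hist1h2ac: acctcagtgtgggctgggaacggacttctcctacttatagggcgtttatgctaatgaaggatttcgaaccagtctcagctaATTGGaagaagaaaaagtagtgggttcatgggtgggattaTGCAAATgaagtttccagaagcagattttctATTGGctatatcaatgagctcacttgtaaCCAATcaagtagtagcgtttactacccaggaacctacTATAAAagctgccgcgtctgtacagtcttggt
Hist2h2ac: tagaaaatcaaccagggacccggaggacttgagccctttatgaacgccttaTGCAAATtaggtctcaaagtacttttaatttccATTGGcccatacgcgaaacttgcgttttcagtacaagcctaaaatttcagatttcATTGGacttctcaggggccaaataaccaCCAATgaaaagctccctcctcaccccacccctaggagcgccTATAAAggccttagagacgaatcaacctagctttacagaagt
The CCAAT letters were in 82.0% of the member promoters and in 34.5% of all 27025 promoters of that length. They were in all 6 H1, 17 H2A and 16 H2B promoters, in 8 of 10 H3 and in 3 of 12 H4 promoters. The H1 box was in 5 of 6 H1 promoters, against 6.22% of all promoters. The octamer core was in 7 of 17 H2A and 7 of 16 H2B promoters and in 0 of the others, against 3.48% of all, and TATAAA was in 29 of the 61 member promoters against 3504 of all. A match is only a match of letters and does not show that a factor binds. In 14 places an H2A and an H2B gene lay head to head, with 172 to 305 bases between their starts. The last 2 stretches take in most or all of such a span, 1 of that between Hist1h2ac and Hist1h2bc and the other of that between Hist2h2ac and Hist2h2be. Where the stretches of such a pair overlap, 1 site can be counted for both genes, as for the octamer core of Hist1h2ae and Hist1h2bg. The H2A and H2B counts above are therefore not counts of separate sites.

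The deposited counts held few reads for most of these genes. Together the 70 members took 69764 counts over 12 libraries, and 55 of them had under 100 counts each. Hist1h1c (30772 counts) and Hist1h2bc (27366 counts) held 74.1% to 90.4% of all member counts in each library. Hist3h2a, Hist1h4i, Hist1h2al and Hist2h2be were the only others with at least 1000. Enough counts for a test were found in 18 members: 2 H1, 6 H2A, 4 H2B, 3 H3 and 3 H4. The remaining 52 had 1387 counts in all. Of the 18 tested members, 11 had a transcript running over 100 bases past the stem-loop letters.

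**Figure D1:**
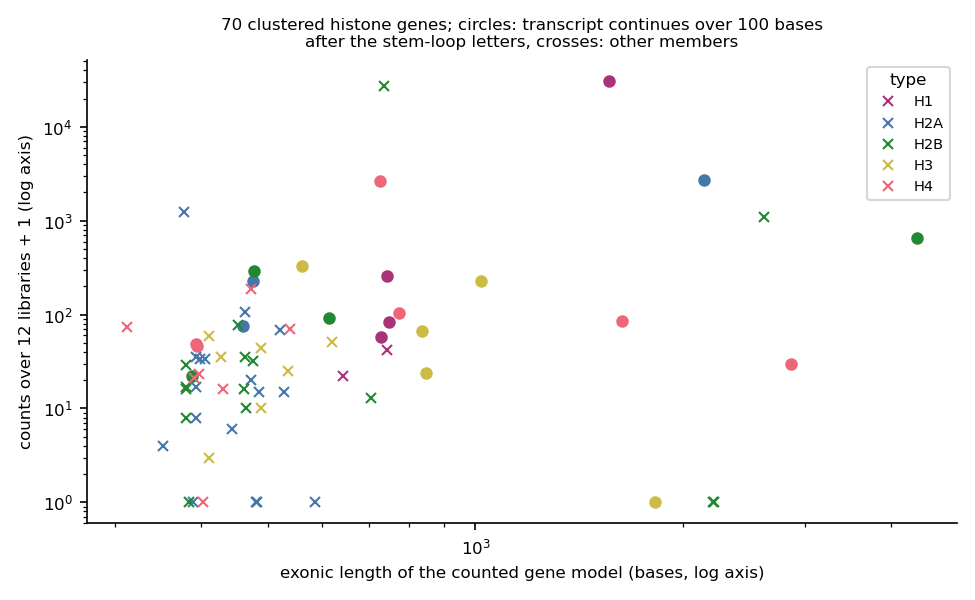
Counts summed over the 12 libraries plus 1 (vertical log axis) against the exonic length of the counted gene model in bases (horizontal log axis), for the 70 clustered histone genes, coloured by type. Circles are members with an annotated transcript running over 100 bases past the stem-loop letters and crosses are the others; most points lie below 100 counts, and Hist1h1c and Hist1h2bc stand at the top.

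Near-identical copies limit what the counts can show. Per the file headers reads aligned to several places were not counted, so a copy shared letter for letter with another gene loses its reads. The share of a member's 50-base windows found in no other annotated gene was taken along its longest GENCODE M21 transcript, not along the counted gene model. Protein-coding transcripts were used where there were any. The median share was 69.2% in the 18 tested members and 43.7% in the 52 others. Members listed at 0 in every library numbered 9. Of these, Hist1h2ba and Hist1h2aa are germline variants with 61.8% and 97.7% unique windows. The other 7 (Hist1h2ao, Hist1h2ap, Hist1h2bq, Hist1h2br, Hist1h4m, Hist2h2aa1 and Hist2h3c1) had under 20% unique windows, so their levels are uncertain. In all, 16 members have a GENCODE M21 transcript over 100 bases longer than the counted gene model, for example Hist1h2ac with 2482 bases against 476 counted. For these members the share of unique windows in the counted part alone was not measured and can differ from the share given.

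Total counts ran from 19967593 to 33065424 per library, and values below are CPM, counts divided by the TMM-scaled library size and given on the usual CPM scale. Bgn lay at 14.3 to 25.1 CPM in the DKO libraries and at 223 to 685 in the wild-type ones, and Dcn at 4.67 to 8.43 against 197 to 977. Of the beta-globin counts, embryonic forms took 74.8% to 87.8% where the label was E18 WT, 82.3% to 85.1% in E12 DKO and 1.33% to 2.67% in E18 DKO. In E12 WT they took 14.8%, 95.1% and 97.1%. Embryonic globin belongs to the early red cells of the yolk sac, so the libraries labelled E18 WT stand with E12 by this measure, and library 1 of E12 WT stands apart from its group. The third library labelled E18 WT stands apart by 6 decidua and trophoblast markers, with a summed CPM of 899.6 against 22.2 and 6.15 in its group. Every comparison with the libraries labelled E18 WT therefore carries a doubt about their stage. Markers of the labelled tissue were present in every library, with summed CPM of 2022 to 6411 for 8 amnion epithelium genes and 49998 to 151100 for 6 yolk sac endoderm genes. In bulk tissue fewer cells of a type and less RNA per cell cannot be told apart.

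Members took a larger share of the library in E18 DKO than elsewhere. They held 0.0343% to 0.0615% of all counts there and 0.0127% to 0.0177% in the other 9 libraries. Between E12 DKO and E18 DKO, 6 of 18 tested members rose and 0 fell (edgeR's quasi-likelihood test, adjusted p under 0.05), where 46% of all 18153 tested genes were called, 23.2% higher and 22.8% lower. The risers were Hist1h1c, Hist1h2bc, Hist1h4i, Hist3h2a, Hist1h2al and Hist2h2ac. The number called fell to 4 with scaling by library size alone, with limma voom, without E12 DKO 2 and without E18 DKO 1. At an unadjusted p under 0.05, 9 were higher and 0 lower, where 26.9% of all genes were higher and 26.9% lower. DESeq2 called 9 higher and 0 lower, where it called 25.3% of all genes higher and 25.8% lower. Without E18 DKO 2 edgeR called 8 higher and 1 (Hist1h2bg) lower, where 20.5% and 20.3% of all genes were called. With no filter on low counts Hist1h2ah was also called, as lower. Summed by type, mean CPM in E18 DKO was 8.49 times that in E12 DKO for H1, 3.40 times for H2A, 2.62 times for H2B, 3.24 times for H4 and 1.44 times for H3. Single copies make up most of the H1, H2B and H4 sums. For H2A, Hist1h2al held 16.5 of 30.9 CPM of the E18 DKO mean and 1.58 of 9.10 CPM of the E12 DKO mean. The H2A sums in E18 DKO were 34.7, 13.9 and 44.3 CPM, with library 2 the low one. The ratio was 1.83 for H1 without Hist1h1c, 1.91 for H2A without Hist1h2al, 1.13 for H2B without Hist1h2bc and 1.27 for H4 without Hist1h4i. Over all members it was 4.45, and 2.50 without Hist1h1c and Hist1h2bc. Without those and Hist1h2al and Hist1h4i it was 1.51 over the other 66 members. Set against the libraries labelled E18 WT, the ratio was 3.65 over all members. Over the same 66 it was 1.03, with sums of 28.2 to 35.1 CPM in E18 DKO and 27.9 to 32.2 CPM in those libraries. By type, without the same single copies, it was 1.59 for H1, 1.08 for H2A, 0.73 for H2B and 1.25 for H4.

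**Figure D2:**
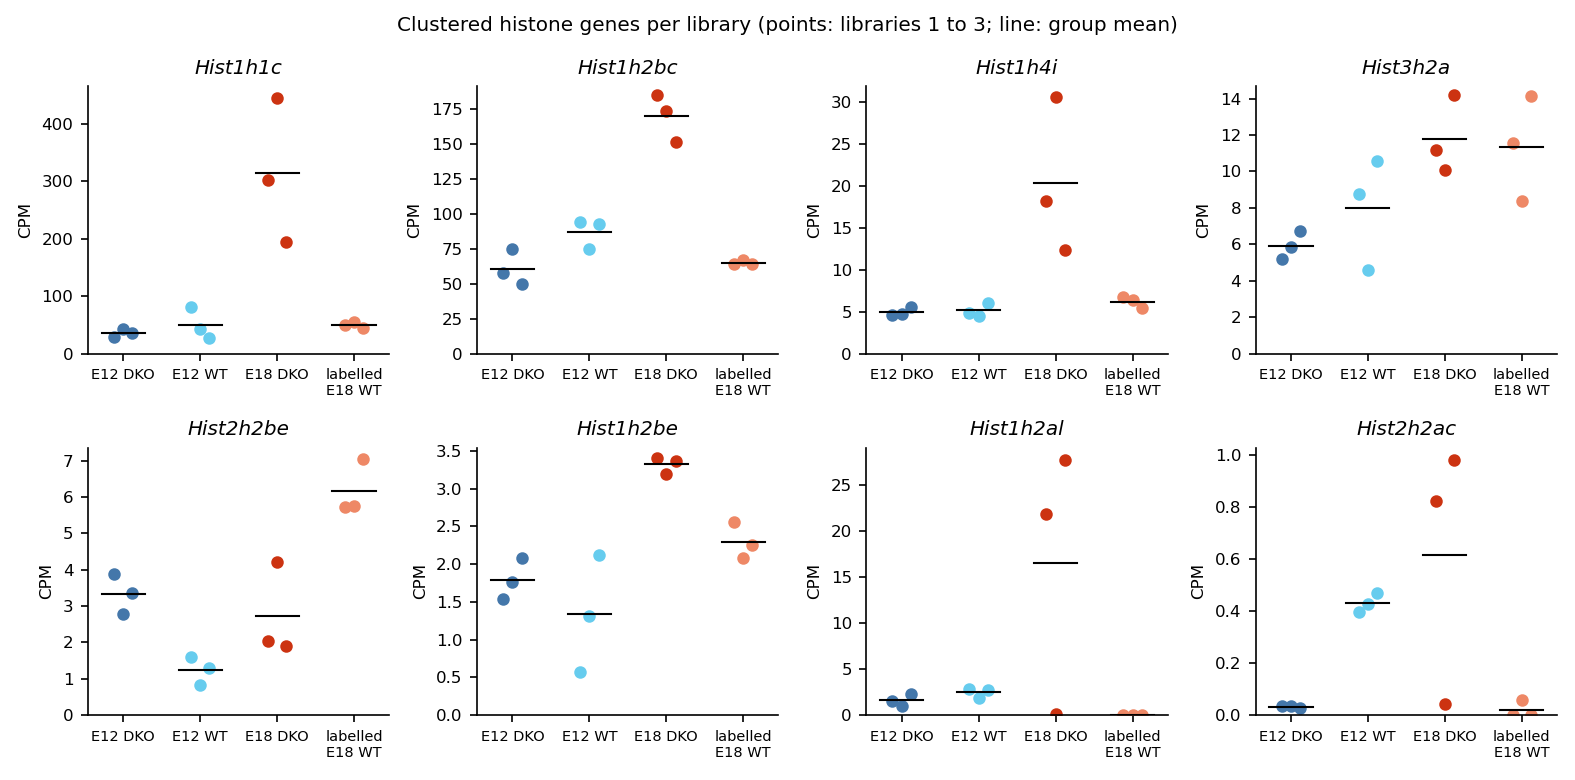
CPM in each of the 12 libraries for 8 clustered histone genes, with libraries 1 to 3 of each group from left to right and a line at the group mean; the vertical axes start at 0 and differ between panels. The 3 E18 DKO libraries lie above all others for Hist1h1c, Hist1h2bc, Hist1h4i and Hist1h2be, whereas Hist1h2al and Hist2h2ac are near 0 in E18 DKO 2.

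Among the linker histones, Hist1h1c encodes H1.2, an H1 that is also found in cells that have stopped dividing. It was at 28.9, 42.7 and 36.5 CPM in E12 DKO, against 303, 446 and 194 CPM in E18 DKO. Those labelled E18 WT gave 49.7, 55.2 and 44.2 CPM. The E18 DKO libraries did not overlap either group, and library 2 was the highest. The log2 fold change was 3.13 (SE 0.40, adjusted p = 0.000224) against E12 DKO, an 8.72-fold rise, and 2.66 (SE 0.40, adjusted p = 0.000583) against the libraries labelled E18 WT. Leaving out single libraries gave 2.78 to 3.37 and 2.32 to 2.91. The gene lies at chromosome 13, 23738808 to 23740367, as a single exon of 1560 bases (ENSMUSG00000036181), with 91.5% unique windows.

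The other tested H1 gene, Hist1h1d, encodes H1.3. It was at 0.46, 1.19 and 0.64 CPM in E12 DKO, against 0.66, 3.07 and 0.27 CPM in E18 DKO, so the groups overlapped and only library 2 was high. It was not called in either comparison. Library 2 of E18 DKO was also the high one for Hist1h2ac, with 0.49, 2.26 and 0.60 CPM in E18 DKO, and for Hist1h2bg, with 0.49, 2.00 and 0.38 CPM. In 10 of the 18 tested members E18 DKO 2 was the highest of its group, and in 6 it was the lowest.

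Of the H2B genes, Hist1h2bc had the most counts. It was at 57.8, 74.9 and 49.5 CPM in E12 DKO, against 185, 174 and 152 CPM in E18 DKO. The libraries labelled E18 WT held 64.1, 67.3 and 64.0 CPM. All E18 DKO libraries were above all 9 others, whose highest value was 94.1 CPM in E12 WT 1. The log2 fold change was 1.49 (SE 0.18, adjusted p = 0.000162) against E12 DKO and 1.38 (SE 0.18, adjusted p = 0.000267) against the libraries labelled E18 WT. Hist1h2bc spans chromosome 13, 23684199 to 23692488, in 2 exon entries with 736 bases in all (ENSMUSG00000018102). Per kilobase of exon its group mean was the highest of the tested members in every group, at 82.5 CPM per kilobase in E12 DKO and 231 in E18 DKO. Hist1h1c followed at 23.1 and 202 CPM per kilobase, and in E18 DKO its libraries (125 to 286) overlapped those of Hist1h2bc (206 to 251). These values are not corrected for shared sequence. For Hist1h2bc 69.9% of the windows were unique, along a transcript of 1156 bases, against 91.5% for Hist1h1c.

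Hist2h2be, another H2B gene (chromosome 3, 96221119 to 96223738, ENSMUSG00000068854), moved differently. In E18 DKO it had 2.03, 4.22 and 1.91 CPM, whereas those labelled E18 WT gave 5.72, 5.74 and 7.05 CPM. These groups did not overlap, and the gene was lower in E18 DKO by a log2 fold change of -1.18 (SE 0.37, adjusted p = 0.0245). That call was lost without E18 DKO 1 (adjusted p = 0.0936), E18 DKO 3 (0.0837) or library 3 labelled E18 WT (0.0643). In E12 DKO it was at 3.88, 2.78 and 3.35 CPM, within the range of E18 DKO, and in E12 WT at 1.58, 0.82 and 1.29 CPM. Hist1h2be (chromosome 13, 23583742 to 23621124) had 1.54, 1.76 and 2.08 CPM in E12 DKO, against 3.41, 3.20 and 3.38 CPM in E18 DKO. The groups did not overlap, but the difference of 0.89 (SE 0.40) missed the threshold (adjusted p = 0.0900).

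The H4 gene Hist1h4i (chromosome 13, 22040636 to 22041362, ENSMUSG00000060639) had 4.56, 4.71 and 5.56 CPM in E12 DKO, against 18.1, 30.6 and 12.4 CPM in E18 DKO. Those labelled E18 WT gave 6.74, 6.32 and 5.37 CPM. The E18 DKO libraries were again apart from both groups, with library 2 highest. The log2 fold change was 2.04 (SE 0.31, adjusted p = 0.000538) against E12 DKO and 1.73 (SE 0.31, adjusted p = 0.00145) against the libraries labelled E18 WT. Hist1h4h was at 0.23, 0.44 and 0.47 CPM in E12 DKO, against 1.26, 0.60 and 1.58 CPM in E18 DKO, which do not overlap, and missed the threshold (adjusted p = 0.0609). Hist1h4j, at 0.11 to 0.55 CPM in E18 DKO and 0.30 to 0.39 CPM in E12 DKO, overlapped.

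Among the H2A genes, Hist3h2a is the H2A member of the small Hist3 group on chromosome 11 (58954685 to 58956830, ENSMUSG00000078851). It was at 5.19, 5.83 and 6.75 CPM in E12 DKO, against 11.2, 10.1 and 14.2 CPM in E18 DKO, with no overlap. The log2 fold change was 0.99 (SE 0.32, adjusted p = 0.0250), and the call was lost without E12 DKO 1 or 2 or E18 DKO 1 or 3 (adjusted p 0.0506 to 0.0880) and with scaling by library size alone (0.0832). Against the libraries labelled E18 WT, at 11.6, 8.37 and 14.1 CPM, it did not pass the test, with a log2 fold change of 0.06 (SE 0.31). The H3 genes were low in all groups. Hist1h3d was at 1.15, 1.05 and 1.05 CPM in E12 DKO, against 1.65, 1.49 and 1.20 CPM in E18 DKO, and Hist2h3c2 was at 0.39 to 0.75 CPM against 0.55 to 2.61 CPM. Of the 3 tested H3 genes 0 passed the test of the main edgeR fit in any of the 5 comparisons. At an unadjusted p under 0.05, Hist1h3i passed at E12 and Hist2h3c2 between the DKO stages, where DESeq2 called Hist2h3c2 higher. Without E18 DKO 2, edgeR called Hist2h3c2 higher in E18 DKO than in both other groups. Hist1h3b, filtered out of the main fit, was called higher than in E12 DKO without E12 WT 3, E18 DKO 3, or library 1 or 3 labelled E18 WT. Against the libraries labelled E18 WT it was called higher without E12 WT 3.

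Against the libraries labelled E18 WT, 5 of 18 members were higher in E18 DKO and 1 was lower, where 42.3% of all tested genes were called, 20.5% higher and 21.8% lower. The higher ones were Hist1h1c, Hist1h2bc, Hist1h4i, Hist1h2al and Hist2h2ac, and the lower one was Hist2h2be. This comparison and the stage comparison share the 3 E18 DKO libraries, so they are not independent of each other. Hist1h1c, Hist1h2bc and Hist1h4i passed the threshold in both under every alternative run. With E12 WT 1 and the third library labelled E18 WT left out, 6 members were called in this comparison and 9 in the stage comparison.

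**Figure D3:**
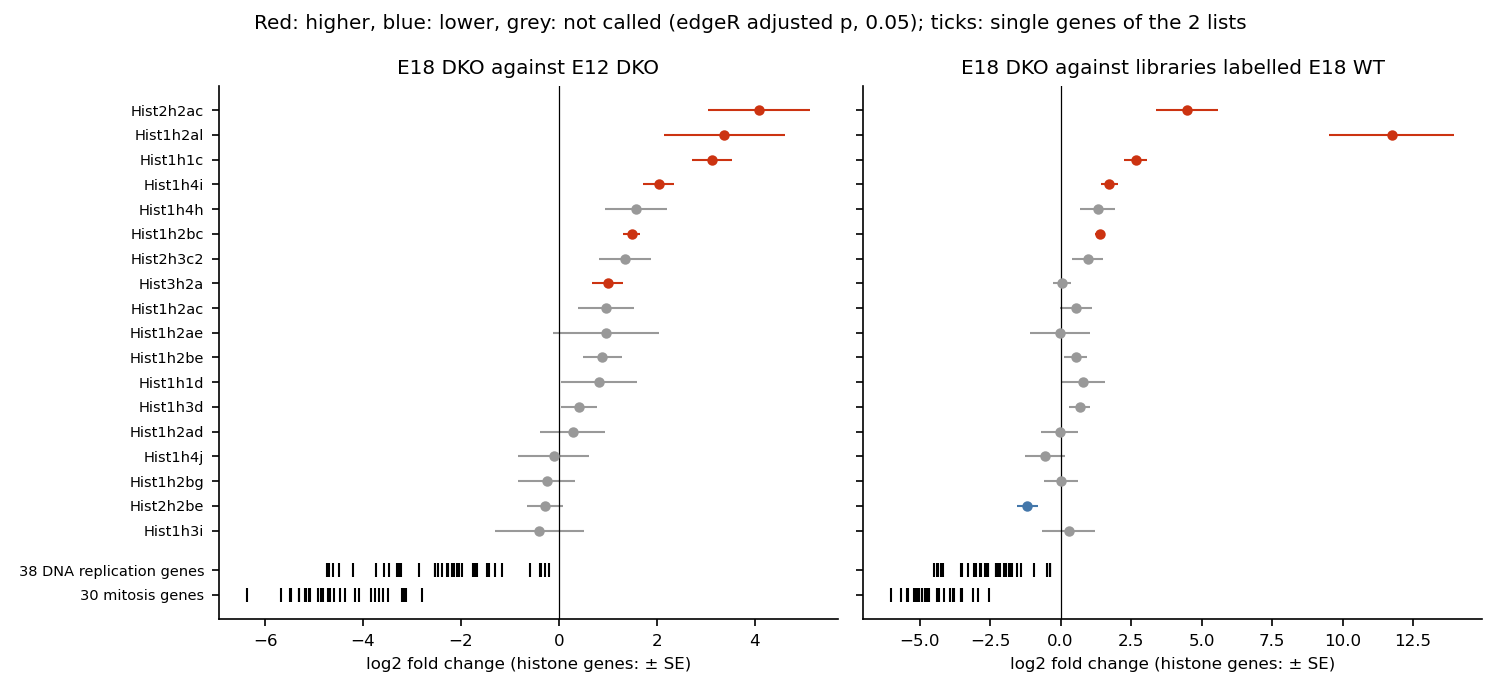
Log2 fold changes (horizontal axis) of the 18 tested clustered histone genes with bars of 1 SE, in E18 DKO against E12 DKO (left) and against the libraries labelled E18 WT (right), coloured by call; the bottom rows mark each gene of the DNA replication and mitosis lists by a tick. The horizontal scales differ; all ticks lie below 0, whereas the called histone genes lie above 0 except Hist2h2be on the right.

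Hist1h2al and Hist2h2ac shared a pattern in which 1 library decided the spread. Hist1h2al was at 1.54, 0.95 and 2.24 CPM in E12 DKO, against 2.86, 1.85 and 2.76 CPM in E12 WT. In E18 DKO the values were 21.9, 0.085 and 27.7 CPM, with 0 counts in all 3 libraries labelled E18 WT. Set against a floor of 3 counts in each of those libraries, the E18 DKO mean was at least 153-fold higher, but E18 DKO 2 alone, with 2 counts, was below that floor. The rise from E12 DKO (log2 fold change 3.38, SE 1.23, adjusted p = 0.0484) overlapped between the groups and was lost in 13 of the alternatives, among them scaling by library size (adjusted p = 0.0581), limma voom (0.607) and leaving out E18 DKO 1 (0.109) or E18 DKO 3 (0.127, log2 fold change 2.78). Against the libraries labelled E18 WT the call was lost with limma voom (adjusted p = 0.108).

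Hist1h2al is an annotated pseudogene at chromosome 13, 51202688 to 51203065 (ENSMUSG00000091383), away from the other members of that chromosome, and its identity as a source of reads is uncertain. It shares 65.5% of its 290 windows of 50 bases with Hist2h2aa1, Hist2h2aa2 and Gm20634 and 42.4% with Hist2h2ac, and 32.4% are unique. Hist2h2ac (chromosome 3, 96220361 to 96220880, ENSMUSG00000068855), with 68 counts in all, was singled out after its values were seen. It was at 0.033, 0.034 and 0.028 CPM in E12 DKO, against 0.40, 0.43 and 0.47 CPM in E12 WT. In E18 DKO it was at 0.82, 0.043 and 0.98 CPM, and in those labelled E18 WT 0, 0.059 and 0 CPM. As with Hist1h2al, E18 DKO 2 was low and the other E18 DKO libraries were the highest of the 12. The log2 fold change was 4.08 (SE 1.04, adjusted p = 0.00859) against E12 DKO, lost with limma voom (0.0549), and 4.47 (SE 1.10, adjusted p = 0.00788) against the libraries labelled E18 WT. Without library 2 labelled E18 WT the latter was 6.93, a fitted value against libraries at 0 counts and no bound.

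The head-to-head partners of the called genes did not always go with them. Hist2h2ac was called higher and Hist2h2be lower in E18 DKO than in the libraries labelled E18 WT, across the 238 bases between them. However, Hist2h2ac overlapped between these groups, and the Hist2h2be call was lost without some single libraries. Hist1h2bc rose from E12 DKO to E18 DKO, whereas Hist1h2ac, 274 bases away, was at 0.49 to 0.72 CPM in E12 DKO and 0.49 to 2.26 CPM in E18 DKO and was not called. However, the counted model of Hist1h2ac holds 476 bases, and its annotated transcript runs 2010 bases past the stem-loop letters. Reads from most of that run were not counted for it, so a change in a tailed Hist1h2ac mRNA could be missed. Both Hist1h2ae and Hist1h2bg, the other pair with 2 tested genes, overlapped between these groups. Hist3h2a has the pseudogene Hist3h2bb-ps as its neighbour, with 9 counts in all.

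At E12, 0 of 18 members passed the edgeR test between DKO and WT, where 0.353% of all genes were called. At an unadjusted p under 0.05 there were 5 members, where 24.3% of all genes passed. DESeq2 called 2, Hist2h2ac lower and Hist2h2be higher in DKO, where it called 11.5% of all genes. Neither gene overlapped between the E12 groups; Hist2h2be differed by 1.44 (SE 0.38, adjusted p = 0.0811) in edgeR and was called without E12 WT 1. Hist1h1c was at 80.5, 42.2 and 27.5 CPM in E12 WT, a spread that took in all E12 DKO values, and its difference of -0.47 (SE 0.37) was 0.050 without E12 WT 1. Hist1h2bc was at 94.1, 75.0 and 92.7 CPM in E12 WT, whose lowest value lay just above the highest E12 DKO value, with a difference of -0.52 (SE 0.17, adjusted p = 0.118). E12 WT 1, which held the highest Hist1h1c value of the wild-type libraries, had a summed CPM of 538 over the mitosis list, against 2189 and 2201 in the other E12 WT libraries. The part of its cell makeup in these values was not tested.

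Between E12 WT and the libraries labelled E18 WT, 1 of 18 members passed the test, where 0.292% of all genes rose and 0.661% fell. This was Hist2h2be, from 1.58, 0.82 and 1.29 CPM to 5.72, 5.74 and 7.05 CPM, without overlap. Its log2 fold change was 2.32 (SE 0.39, adjusted p = 0.0222), and the call was lost without E12 WT 2 or 3 or any library labelled E18 WT (adjusted p 0.0579 to 0.0925) and with only these groups in the fit (0.0844). Hist1h1c differed by -0.01 (SE 0.37) and Hist1h4i by 0.26 (SE 0.30). The test of whether the genotype difference itself differed between the stages called 6 members, 5 with a more positive difference at E18 and 1 with a more negative one, where 41.9% of all genes were called, 21.6% and 20.3% in these directions. It gave 3.14 (SE 0.54, adjusted p = 0.00132) for Hist1h1c, 1.91 (SE 0.25, adjusted p = 0.000354) for Hist1h2bc and -2.61 (SE 0.53, adjusted p = 0.00303) for Hist2h2be on the log2 scale. For Hist1h4i it gave 1.78 (SE 0.43, adjusted p = 0.00759), which was lost with scaling by library size alone (1.13, adjusted p = 0.0563). That scaling moved the median of all genes in this test to -0.64 and gave 2.48 for Hist1h1c, 1.24 for Hist1h2bc and -3.29 for Hist2h2be, all still called.

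Cell division genes went the other way in E18 DKO. All 30 genes of a mitosis list (Mki67, Top2a, cyclins, kinesins and spindle checkpoint genes) were lower in E18 DKO than in E12 DKO, with a median log2 fold change of -4.70, and 30 of 30 were lower than in the libraries labelled E18 WT, with a median of -4.74. Of 38 DNA replication genes (the Mcm helicase, polymerases and nucleotide synthesis enzymes), 33 and 34 were lower and 0 higher, with medians of -2.23 and -2.27. Over all tested genes 22.8% and 21.8% were lower, and the medians were -0.02 and -0.04. Of the 18 tested histone members 6 and 5 were higher, as above. Summed mitosis CPM was 2067 to 2141 in E12 DKO, 1873 to 2231 in the libraries labelled E18 WT and 107 to 144 in E18 DKO.

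**Figure D4:**
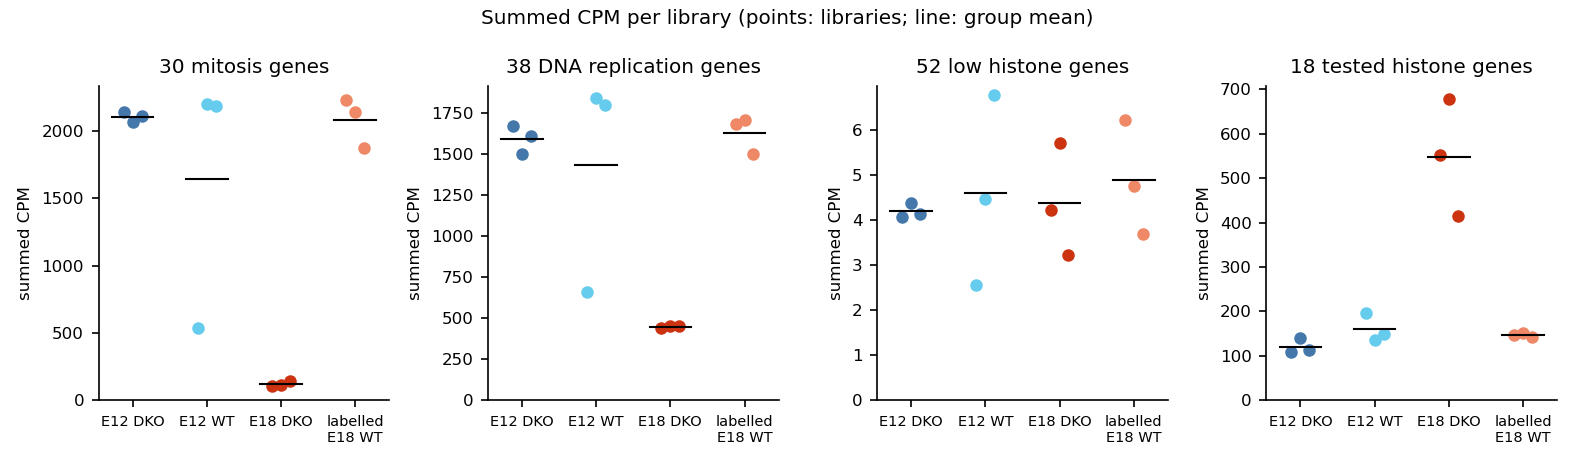
Summed CPM per library of the 30 mitosis genes, the 38 DNA replication genes, the 52 untested clustered histone genes and the 18 tested ones, with a line at each group mean; axes start at 0 and differ between panels. The 3 E18 DKO libraries are lowest for both division lists, lie within the range of the other groups for the untested histone genes and are highest for the tested ones.

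The 52 members with too few counts to test were left out by the filter on low counts, which keeps a gene that is high in 1 group. Their sums are given as values of what remained and were not tested. Their summed CPM was 4.07, 4.37 and 4.12 in E12 DKO, 2.55, 4.46 and 6.76 in E12 WT, 4.23, 5.71 and 3.21 in E18 DKO and 6.21, 4.74 and 3.69 in the libraries labelled E18 WT. All groups overlapped. The E18 DKO mean was 1.05 times the E12 DKO mean, where the same ratio was 0.0578 for the mitosis list and 0.28 for the DNA replication list. These sums rest on 58 to 165 counts a library. Of the 52 genes, 27 had a lower mean in E18 DKO than in E12 DKO, 15 a higher one, and 10 were at 0 in both groups. Among the 27, 11 were at 0 in all E18 DKO libraries. With no filter, edgeR called Hist1h2ah (33 counts in all) lower in E18 DKO than in E12 DKO. In the same way it called Hist1h3g (34 counts in all) lower than in the libraries labelled E18 WT.

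Replacement histones come from genes outside the clusters. Many, though not all in the list, are made throughout the cell cycle from ordinary poly(A) mRNAs. The listed genes changed in both directions. Of 11, 4 rose and 3 fell from E12 DKO to E18 DKO, where 23.2% of all tested genes rose and 22.8% fell. The calls numbered 4 in all without any 1 of the E12 DKO libraries or without E18 DKO 2. Cenpa, the centromeric H3, was at 60.1, 55.9 and 55.4 CPM in E12 DKO, against 6.32, 3.58 and 6.26 CPM in E18 DKO, a log2 fold change of -3.41 (SE 0.49, adjusted p = 0.000391). H2afx, the H2A that is phosphorylated at DNA breaks, fell by 2.08 and H2afz, which sits at promoters, by 1.58 on the log2 scale. H2afj rose from 21.8, 23.3 and 22.3 CPM to 70.8, 66.9 and 68.0 CPM (1.61, SE 0.24, adjusted p = 0.000437), and H1fx (1.16), H2afy (0.67) and H3f3b (0.61) also rose. Against the libraries labelled E18 WT, 1 was higher (H2afj, 1.79) and 4 were lower, among them H2afy2 (-1.24). Of all tested genes 20.5% were higher and 21.8% lower there.

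Genes that transcribe and process stem-loop histone mRNA were more often lower than higher in E18 DKO. Of 17 found in the table, 9 were lower and 1 higher than in E12 DKO, with a median log2 fold change of -0.88. Of all tested genes 22.8% were lower and 23.2% higher. Against the libraries labelled E18 WT, 9 were lower and 2 higher, with a median of -0.64. The shares of all tested genes there were 21.8% lower and 20.5% higher. Slbp, whose protein binds the stem-loop, gave 31.9, 33.1 and 33.5 CPM at E12 in DKO. It gave 14.6, 19.7 and 11.0 CPM in E18 DKO, below all 3 of those libraries and below the 27.2, 32.2 and 27.6 CPM of those labelled E18 WT. The log2 fold change from E12 DKO was -1.12 (SE 0.24, adjusted p = 0.00378). Npat, which activates the clusters in S phase, changed by -1.24, Casp8ap2 (FLASH) by -1.47 and Zfp473 by -2.10 on the same scale. Pou2f1, the octamer-binding factor Oct-1, was at 22.1, 19.0 and 22.6 CPM in E12 DKO, against 9.78, 9.33 and 8.38 CPM in E18 DKO (-1.21). Lsm10, a part of the U7 particle that cuts these mRNAs, rose by 1.02 and its partner Lsm11 changed by -1.02.

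Of 18 histone chaperones, which carry histones to DNA, 8 were lower and 1 higher than in E12 DKO. Of all tested genes 22.8% were lower and 23.2% higher. Against the libraries labelled E18 WT 9 chaperones were lower and 1 higher, where 21.8% of all tested genes were lower and 20.5% higher. Lowest against E12 DKO was Chaf1a, part of the factor that loads histones on newly copied DNA, at 48.2, 41.3 and 45.9 CPM in E12 DKO, against 2.75, 3.75 and 2.45 CPM in E18 DKO (-3.91, SE 0.36). Asf1b changed by -2.94, Hat1, which acetylates new H4, by -2.50, and Chaf1b by -2.00. Hira, which places H3.3 outside S phase, rose by 1.06 (SE 0.30, adjusted p = 0.0130) from E12 DKO.

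Markers of cell types also differed in these comparisons. Against E12 DKO 23.2% of all tested genes were higher in E18 DKO and 22.8% lower. Against the libraries labelled E18 WT 20.5% were higher and 21.8% lower. In E18 DKO against E12 DKO, 6 of 8 macrophage markers were higher and 1 lower, with summed CPM of 376 to 398 in E12 DKO and 908 to 1293 in E18 DKO. All 3 primitive red cell markers were lower, with sums of 697 to 2955 against 17.3 to 19.0 CPM. Amnion epithelium markers were higher in 4 and lower in 1 of 8 (2022 to 2370 against 4974 to 6411 CPM), and mesenchyme markers were higher in 3 and lower in 3 of 6 (11984 to 15022 against 3388 to 6069 CPM). Cornifying epidermis markers were higher in 2 of 4 tested, with sums of 4.34 to 6.70 against 159 to 205 CPM. Krt1 of that list was at 0 counts in all E18 DKO libraries. Of 3 tested male germ cell markers 1 was higher and 1 lower (5.42 to 7.14 against 14.4 to 15.6 CPM), with Tnp1, Prm1, Prm2 and H1fnt at 0 counts in E18 DKO. The sums of that list include Hist1h1t, an untested clustered histone gene with 56 counts in all. Against the libraries labelled E18 WT, 6 macrophage markers were higher and 2 lower, all 3 primitive red cell markers were lower, and 5 of 7 definitive red cell markers were lower (2284 to 5181 CPM in those libraries, 1014 to 1897 CPM in E18 DKO). Amnion epithelium markers were higher in 4 and lower in 2 of 8, and mesenchyme markers higher in 2 and lower in 3 of 6. Decidua and trophoblast markers summed to 50.04 CPM in E18 DKO 2, against 0.60 and 2.01 CPM in E18 DKO 1 and 3, and E18 DKO 2 is also the library near 0 for Hist1h2al and Hist2h2ac. The part of these shifts in the histone values was not tested.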

How the data were processed

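RNA sequencing of 12 mouse fetal membrane libraries was used. The authors deposited raw counts per gene, not normalised, from featureCounts 1.5.0 and Ensembl release 86, per the file headers. Trimmomatic 0.36, STAR 2.4.2a, Subread 1.5.0 and build GRCm38 are named in the submitters' processing notes. Per the file headers multiply aligned reads were not counted, so near-identical copies lose reads. Counts of E12 DKO 1 came from the series table and those of the other 11 libraries from their own files; the 3 files labelled E18 WT each equalled 1 column of that table.

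Genes were filtered with filterByExpr, leaving 18153, and 1 edgeR 4.0.16 quasi-likelihood model (R 4.3.3; TMM factors, a mean for each of 4 groups, 8 residual degrees of freedom) was fitted to all 12 libraries. P-values were adjusted by Benjamini-Hochberg over all tested genes and called under 0.05. SE is the absolute log2 fold change over the square root of F. The procedure was tested on simulated counts, with 100 genes shifted at each size. For E18 DKO against E12 DKO, shifts by 2-fold were called in 15% of such genes and shifts by 4-fold in 66%. Set against the libraries labelled E18 WT, these shares were 9% and 59%. Among unchanged genes 0.034% and 0.028% were called. A gene without a call can therefore still differ by 2-fold or more. The members and gene lists were chosen with earlier results of these data known. Named genes were the 2 most abundant members of each type, called members with a mean of at least 1 CPM, Hist1h2al, up to 4 genes of each list, Bgn and Dcn; further members and list genes were named after their values were seen. Alternatives were DESeq2 1.42.0 (size factors, and its Wald test), library size alone, limma 3.58.1 voom, no filter, 1 CPM in 3 libraries, the replicate number as a block, only the groups compared, and leaving out libraries. Sequence features came from GENCODE M21 and RefSeq. A floor of 3 counts stands for a count of 0 and covers counting error only. Figures were drawn with matplotlib 3.10.9.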

Additional observations from a re-analysis of the deposited data

Results flagged for a closer look

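For 6 clustered histone genes the difference between DKO and WT at E18 differed from that at E12 by the edgeR test of the difference itself, with the libraries labelled E18 WT as the later wild-type group. The E18 minus E12 difference on the log2 scale was 3.14 for Hist1h1c, 1.91 for Hist1h2bc and 1.78 for Hist1h4i, and each of the 3 E18 DKO libraries was above all others for these genes. It was -2.61 for Hist2h2be, which differed by 1.44 at E12, where it was not called, and by -1.18 at E18. The fitted values of 12.38 for Hist1h2al and 8.06 for Hist2h2ac are set by groups at or near 0 counts and are not bounds, and both genes were near 0 in E18 DKO 2. For Hist1h1c the value was 2.53 with E12 WT 1 and the third library labelled E18 WT left out.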

How the results depend on the processing

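The main limits are the low counts of most members, shared sequence between copies and the doubt about the stage of the libraries labelled E18 WT. Members called between DKO and WT at E12 numbered 0, but 2 by the DESeq2 Wald test, 0 to 1 when single libraries were left out, and 1 (Hist2h2be) with both E12 WT 1 and the third library labelled E18 WT left out. The single member called between the wild-type groups became 2 by DESeq2, 0 with the replicate block and 0 to 3 when single libraries were left out. Calls in the replacement histone list went from 7 to 4 with library size alone and ranged from 4 to 8 when single libraries were left out. Calls in the chaperone list went from 9 to 14 with library size alone. That scaling moved the median of all genes to -0.37 in E18 DKO against E12 DKO. Uncalled E12 differences changed sign: Hist1h1c ranged from -0.77 to 0.050 when single libraries were left out (0.050 without E12 WT 1) and was 0.048 with both of those libraries left out. Hist1h4i was 0.26 with library size alone and ranged from -0.14 to 0.084 when single libraries were left out (0.0072 without E12 DKO 1, 0.084 without E12 WT 3). The cause of these shifts was not tested. With the replicate number as a block, Hist1h2al was not called between the DKO stages (2.84, adjusted p = 0.106) and Hist2h2be not between the wild-type groups (2.33, adjusted p = 0.0614), and no other named member lost its call. Deviations of same-numbered libraries correlated by -0.18 to 0.29 and those of differently numbered ones by -0.37 to 0.23. No pairing by number was seen, but a weak shared effect could be missed by this check. With only the E18 groups in the fit, Hist1h2al and Hist2h2ac were filtered out.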
